A study of Rattus norvegicus with 4 samples.

Results

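The genes described here encode the protein subunits of 2 machines that every cell needs: the cytosolic ribosome and the nuclear-encoded part of the mitochondrial respiratory chain with ATP synthase. They were chosen by gene symbol alone, with the patterns Rps, Rpl, Rplp and Rpsa for ribosomal proteins, Ndufa, Ndufb, Ndufc, Ndufs and Ndufv for complex I, Sdh for complex II, Uqcr for complex III, Cox4 to Cox8 for complex IV and Atp5 for ATP synthase. In the RefSeq table of the rat assembly GRCr8, 387 of 47357 genes had such a symbol, and 316 of these were protein-coding, of 23148 protein-coding genes in all. The symbols mix the established subunits with paralogs, tissue variants and numbered copies such as Rpl5l1. The established subunits were 77 ribosomal protein genes and 78 respiratory chain genes, while 140 protein-coding genes were ribosomal paralogs and copies and 21 were respiratory ones. The 78 include Atp5if1, which encodes an inhibitor of ATP synthase rather than a subunit.

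The peaks came from m6A-seq. An antibody to N6-methyladenosine enriches marked RNA fragments (m6A-IP), these are sequenced beside the starting RNA (input), and peaks are called where m6A-IP reads exceed input reads. Primary cardiac fibroblasts (CFs) of newborn Sprague-Dawley rats no older than 3 days, labelled WT, carried the empty plasmid (Vector), and those labelled FTO overexpression carried a plasmid with rat FTO, the m6A demethylase, in both cases for 48 h. Differential adhesion was used to separate the heart cells, and how many CFs took up the plasmid is not given in the sources used here. Each group had 1 m6A-IP and 1 input library and 1 deposited peak list, so the groups were compared without replicates, no test was made, and the sequencing depth is unknown.

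The lists held 21249 Vector peaks and 17796 FTO peaks and give the length of each peak, its transcript and its gene ID, but no height or position. The transfected gene Fto had 3 Vector peaks and 9 FTO peaks. Of 10 fibroblast markers 7 had a peak in each list, with Pdgfra the highest at 7 and 6, whereas Vim and Dcn had none. Cardiomyocyte markers were also listed, 6 of 8 for Vector and 5 of 8 for FTO. Myh7 had 8 and 5 peaks, Myh6 7 in each list, Tnnt2 4 and 7, and Ryr2 2 and 5. Of 4 immune markers 2 and 3 were listed, and of 5 endothelial markers 0 and 1. The immune marker Ptprc had 10 and 7 peaks. A peak does not measure how much of a transcript is present, and the part of other cell types in the results was not tested.

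Ribosomal protein mRNAs are known as short, very abundant transcripts that begin with a run of pyrimidines, the 5′ terminal oligopyrimidine (TOP) motif, through which mTOR signalling sets their translation. Respiratory chain mRNAs are likewise short and abundant, and their products are imported into mitochondria and built into the respiratory complexes and ATP synthase, all of which except complex II also hold subunits encoded by mitochondrial DNA. The m6A mark is placed mostly in long internal exons and near stop codons, and intron-rich genes with short exons usually carry little of it.

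The transcription starts are shown because the pyrimidine run is the sequence feature that ribosomal protein mRNAs are known for, and copies that share their symbols may carry it or not. The sequences are from RefSeq (GRCr8) and span 25 bases before to 25 bases after the annotated start, and capitals mark each run of 6 or more bases that are all C or T and begin with C. All of these genes had an m6A peak. The first 4 are established ribosomal protein genes with a run and Rpl26 is an established one without it, Rpl5l1 and Rpl30l1 are copies without a run and Rps4y2 is a paralog with it, and Ndufv3 belongs to complex I.
Rps3, chr1:163195752-163195801 (- strand): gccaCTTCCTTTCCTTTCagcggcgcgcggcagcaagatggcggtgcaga
Rpl5, chr14:1995201-1995250 (- strand): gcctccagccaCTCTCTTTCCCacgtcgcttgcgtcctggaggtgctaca
Rpl35, chr3:43165897-43165946 (- strand): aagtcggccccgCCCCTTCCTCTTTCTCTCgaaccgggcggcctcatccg
Rpl23, chr10:83272160-83272209 (- strand): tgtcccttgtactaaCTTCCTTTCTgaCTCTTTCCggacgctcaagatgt
Rpl26, chr10:54109667-54109716 (+ strand): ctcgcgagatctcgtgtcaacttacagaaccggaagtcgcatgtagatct
Rpl5l1, chr9:121530560-121530609 (- strand): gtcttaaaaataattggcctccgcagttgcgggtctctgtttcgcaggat
Rpl30l1, chr13:91813960-91814009 (+ strand): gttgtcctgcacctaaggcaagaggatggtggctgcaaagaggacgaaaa
Rps4y2, chr4:183000888-183000937 (+ strand): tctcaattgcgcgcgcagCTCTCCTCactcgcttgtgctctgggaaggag
Ndufv3, chr20:9613761-9613810 (+ strand): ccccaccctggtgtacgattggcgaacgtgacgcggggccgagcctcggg

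A start window was available for 62 of the 77 ribosomal protein genes, and 54 of them (87.1%) held such a run on the transcribed strand. The same was true of 29 of 70 respiratory chain genes (41.4%), 43 of 111 ribosomal paralogs and copies (38.7%) and 6784 of 18999 protein-coding genes (35.7%). The motif CTTTC, which may lie within such a run, was found in 33 ribosomal protein genes (53.2%), 17 paralogs and copies (15.3%) and 4 respiratory chain genes (5.71%), against 6.93% of all protein-coding genes. On the opposite strand CTTTC was found in 1.61%, 10.8%, 5.71% and 6.05% of them, in the same order. Among the ribosomal protein genes the run was present in 8 of 10 with an m6A peak in either list and in 46 of 52 without a peak, so most members carried it in both sets. Rpl26 and Rpl41 were those with a peak and no run, while the peak-bearing Rps4y2, Rpl36l6 and Rps27l3 among the paralogs and copies had one. The annotated start can be off by some bases, and a match describes the letters only.

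**Figure D1:**
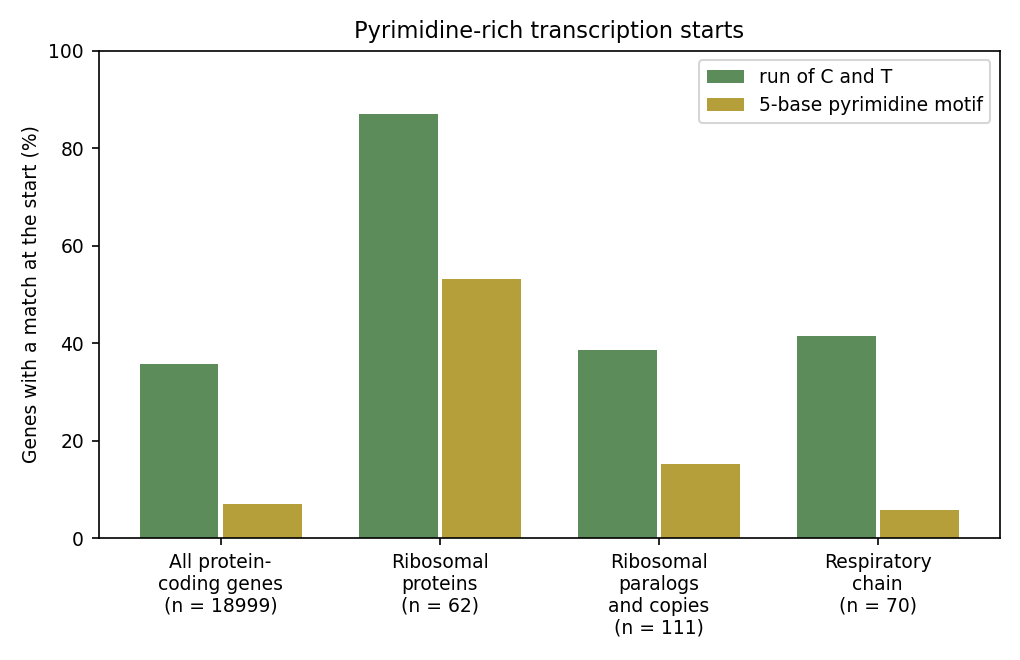
Bars give the percent of genes whose window around the annotated start holds a run of C and T (green) or the motif CTTTC (yellow), for all protein-coding genes and for 3 groups of members. The ribosomal proteins reach 87.1% and 53.2%, and the other groups stay at or under 41.4% and 15.3%.

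m6A peaks were listed for few of these genes. Of the 316 protein-coding members, 36 had a peak in the Vector list (11.4%, 95% Wilson interval 8.34% to 15.4%), where 32.1% of all protein-coding genes had one. In the FTO list 24 members had a peak (7.59%, 5.16% to 11.1%), against 29.7% of all protein-coding genes. Both lists named 21 members (26.4% of all protein-coding genes were in both), 15 were in the Vector list alone, 3 were in the FTO list alone and 277 were in neither. Of all 23148 protein-coding genes, 1327 were in the Vector list alone, 765 in the FTO list alone and 14943 in neither. The number in the Vector list alone was thus near the background. The intervals count genes and cover counting error only. The length and the abundance of the transcripts, which set how easily a peak is called, were not used, and their part in these shares was not tested.

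The share was also low in the established subunits. Of the 77 ribosomal protein genes, 10 had a Vector peak (13.0%, interval 7.21% to 22.3%) and 4 an FTO peak (5.19%, 2.04% to 12.6%). Of the 78 respiratory chain genes, 15 had a Vector peak (19.2%, with an upper bound of 29.3%) and 10 an FTO peak (12.8%). All 4 of these intervals lie below the shares of all protein-coding genes. The 140 ribosomal paralogs and copies stood at 11 genes (7.86%) and 10 genes (7.14%), and none of the 21 respiratory paralogs and copies was listed.

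Among the roles, the small ribosomal subunit had a peak on 2 of 31 genes for Vector, the lowest Vector share at 6.45%, and on 1 of 31 for FTO. The large subunit had 8 and 3 of 46. Complex I had 6 and 5 of 37, complex II 1 and 0 of 4, complex III 1 and 1 of 8, and complex IV 1 and 1 of 11. ATP synthase stood highest with 6 of 18 Vector genes (33.3%, interval 16.3% to 56.3%), a share next to that of all protein-coding genes, and 3 of 18 FTO genes (16.7%). The 18 include the inhibitor gene Atp5if1, which had 2 peaks in each list. Several subunits that define their complexes were in neither list. In the ribosome they were Rpl3 at the peptidyl transferase centre, Rplp0 of the stalk base, Rps6, the S6 kinase substrate, and Rpsa. Also unlisted were Ndufs1 and Ndufv1 of the NADH-oxidising arm of complex I, the flavoprotein Sdha, and the complex III subunits Uqcrc1 and Uqcrfs1. The cytochrome c oxidase subunits Cox4i1 and Cox5a, and Atp5f1a and the catalytic Atp5f1b of ATP synthase, completed them.

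**Figure D2:**
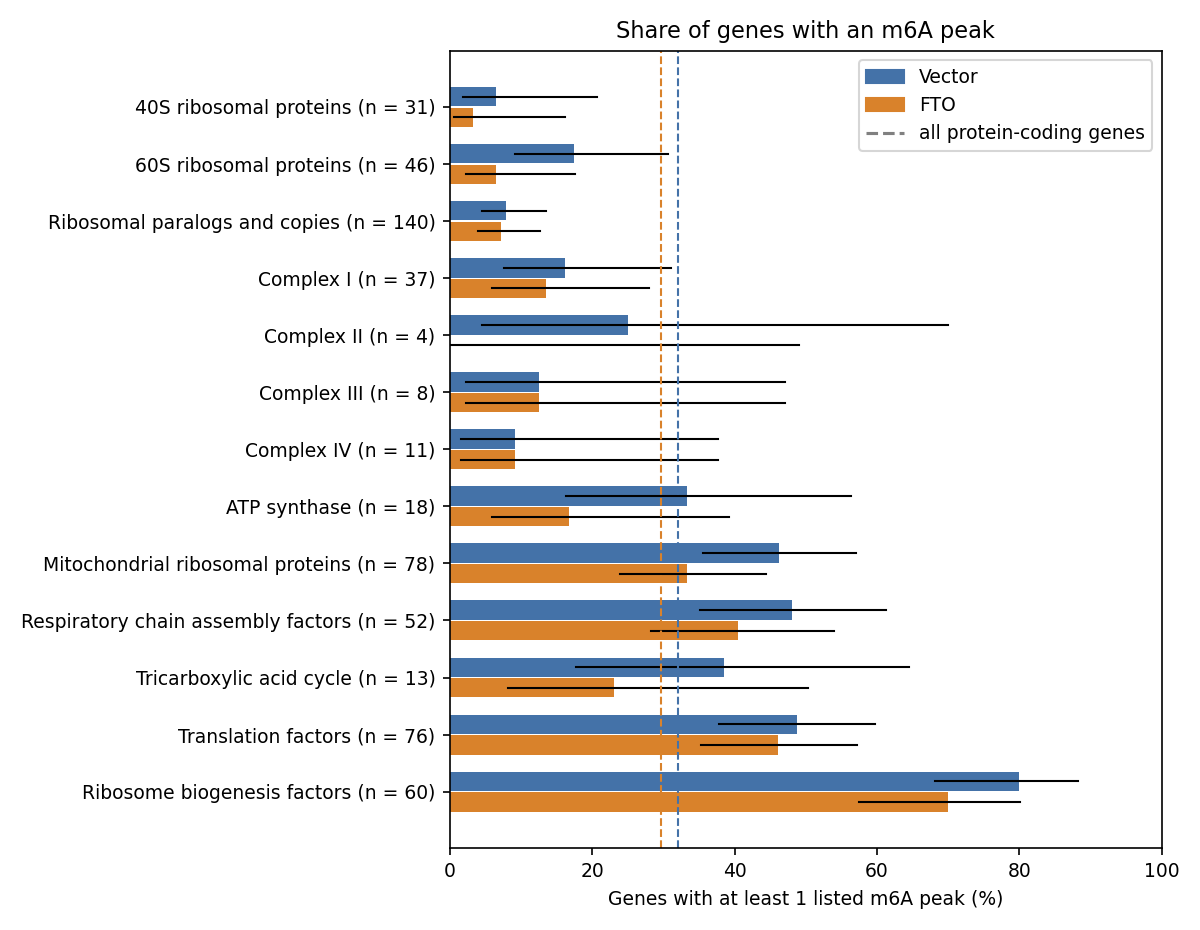
Bars give the percent of genes with at least 1 listed peak in the Vector list (blue) and the FTO list (orange), black lines are 95% Wilson intervals, and dashed lines mark all protein-coding genes at 32.1% and 29.7%. The ribosomal and respiratory subunits lie under the dashed lines apart from ATP synthase in the Vector list, whereas the mitochondrial ribosomal proteins, the assembly factors, the translation factors and the ribosome biogenesis factors lie above them. The ATP synthase bars count the inhibitor gene Atp5if1.

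The genes that build or serve the same machines were listed at higher shares than the subunits themselves. Of 60 ribosome biogenesis factors, 48 had a Vector peak (80.0%) and 42 an FTO peak (70.0%). The highest were Tcof1, a nucleolar factor of ribosomal DNA transcription, with 15 and 14 peaks, Mdn1, the giant ATPase that matures the large subunit, with 12 and 9, and Nol8 with 12 and 10. Of 76 translation factors, 37 (48.7%) and 35 (46.1%) had a peak, led by Eif4g3, a cap-complex scaffold, with 20 in each list. Eif4ebp3, which binds eIF4E and keeps it from eIF4G, was listed with 14 in each, and Gspt1, the release factor eRF3a, with 12 and 10. The lists give no positions, and whether the 14 peaks listed for Eif4ebp3 lie on its own mRNA was not tested.

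The ribosome inside mitochondria differed from the cytosolic one. Of 78 mitochondrial ribosomal protein genes, 36 had a Vector peak (46.2%, interval 35.5% to 57.1%) and 26 an FTO peak (33.3%, 23.9% to 44.4%). Mrps5 had 5 and 6 peaks, Mrpl44 3 and 1, and Mrpl45 3 and 0. Likewise 25 of 52 respiratory chain assembly factors (48.1%, interval 35.1% to 61.3%) and 21 of 52 (40.4%) had a peak. Acad9 of complex I assembly had 4 Vector peaks and 0 FTO peaks. The F1 assembly factor Atpaf1 had 3 and 0, and Cox10, which acts in heme A synthesis, had 3 and 2. Of 13 tricarboxylic acid cycle genes 5 and 3 were listed, with Dlst at 7 and 3, Suclg1 at 4 and 0 and Ogdh at 3 and 3. Each of these 5 gene groups had fewer FTO than Vector genes and peaks, as did the lists as a whole.

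The established ribosomal proteins with a peak are few enough to be given in full. In the small subunit, Rps3, which lines the mRNA entry channel, had a Vector peak of 42 bp and no FTO peak. Rps24, a gene mutated in Diamond-Blackfan anaemia, had Vector peaks of 111 and 210 bp and no FTO peak. Rps29 had no Vector peak and an FTO peak of 303 bp. The small subunit thus had no gene in both lists.

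In the large subunit, 3 genes were in both lists. Rpl35 had peaks of 137 and 185 bp in each list. Rpl23 had a peak of 131 bp in each. Rplp2, an acidic protein of the ribosomal stalk, had a peak of 123 bp in each and a second FTO peak of 99 bp. The other 5 were listed for Vector alone. They were Rpl5, which carries 5S rRNA and binds Mdm2, with 152 bp, Rpl4 with 298 bp, Rpl26 with 141 bp, Rpl36a with 123 bp and Rpl41, the smallest ribosomal protein, with 321 bp. No ribosomal protein gene had more than 2 peaks in a list, while the mean over all protein-coding genes with a peak was 2.75 in the Vector list.

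Together the ribosomal protein genes carried 12 Vector peaks and 6 FTO peaks, while over all protein-coding genes the FTO number was 83.6% of the Vector number. Of the 10 such genes with a Vector peak, 7 had no FTO peak, against 17.8% of all protein-coding genes with a Vector peak. Most of these genes had a single peak, and single peaks are lost more often in any gene. Of the 8 ribosomal protein genes with exactly 1 Vector peak, 6 had no FTO peak (75.0%), against 31.8% of the 3035 protein-coding genes with exactly 1. With 8 genes and 1 library pair per group, a smaller FTO list, lower transcript levels and lower methylation cannot be told apart.

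**Figure D3:**
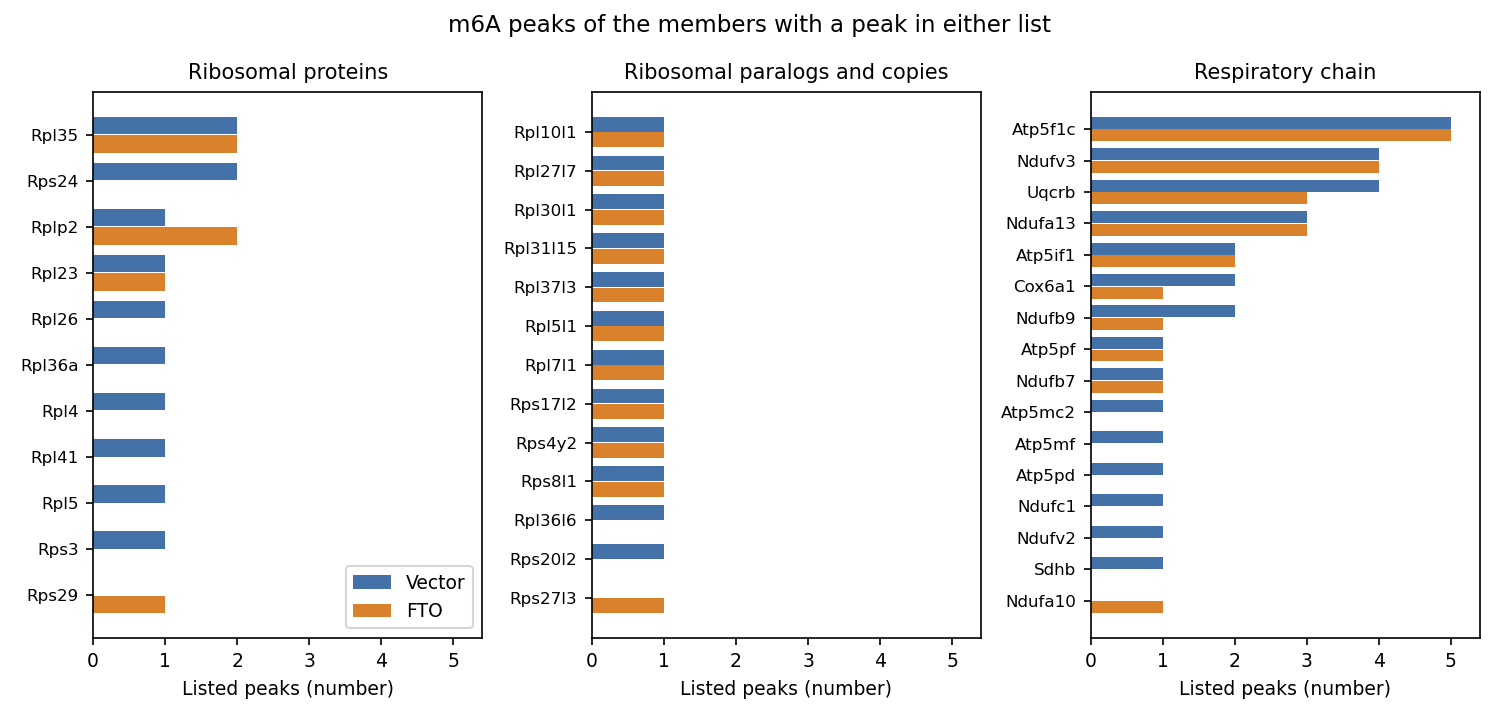
Bars give the number of listed peaks per gene in the Vector list (blue) and the FTO list (orange) for the 40 members with a peak in either list, in 3 groups. Genes of the respiratory chain reach 5 peaks, established ribosomal proteins at most 2, and every paralog or copy has 1 peak in each list that names it.

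In the respiratory chain, 9 genes were in both lists. Ndufv3, an accessory subunit of the NADH-oxidising arm of complex I that is made in a short and a long form, had peaks of 124, 155, 233 and 1050 bp in each list. Ndufa13, also known as Grim19, had peaks of 79, 94 and 227 bp in each. Ndufb7 of the membrane arm had a peak of 195 bp in each. All peaks of these 3 genes thus had the same length in both groups. Ndufb9 had a peak of 141 bp in each list, and its Vector peak of 114 bp had no FTO partner of that length.

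ATP synthase gave the gene with the most peaks of all members. Atp5f1c, the gamma subunit of the rotating central stalk, had 5 peaks in each list. Peaks of 243, 250, 352 and 1826 bp were listed in both. The remaining one was 918 bp long in the Vector list and 1096 bp in the FTO list. Atp5if1, the inhibitor that stops ATP hydrolysis by the enzyme, had peaks of 161 and 264 bp in each list. Atp5pf, coupling factor 6 of the peripheral stalk, had a peak of 461 bp in each.

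Complexes III and IV had a gene each with peak lengths that were partly equal in the lists. Uqcrb, a small subunit of complex III, had Vector peaks of 42, 72, 249 and 419 bp and FTO peaks of 42, 210 and 475 bp. Cox6a1, the widely expressed form of a complex IV subunit, had a peak of 143 bp in each list and a Vector peak of 275 bp without a partner.

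The other respiratory chain genes had a single short peak in 1 list. Listed for Vector alone were Ndufc1 with 146 bp, Ndufv2, an iron-sulfur subunit of complex I, with 126 bp, Sdhb, the iron-sulfur subunit of complex II, with 100 bp, and the ATP synthase genes Atp5pd with 130 bp, Atp5mf with 117 bp and Atp5mc2, which encodes the c-ring subunit, with 17 bp. Ndufa10 of complex I was listed for FTO alone with 134 bp. All 7 of these peaks were under 150 bp.

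Respiratory chain genes carried 30 Vector peaks and 22 FTO peaks, the FTO number being 73.3% of the Vector number. All 7 genes with 2 or more Vector peaks had an FTO peak, and over all protein-coding genes with 2 or more only 8.20% had none, so this is near the background. Of the 8 respiratory chain genes with exactly 1 Vector peak, 6 had no FTO peak, against the 31.8% given above. Short single peaks often had no FTO counterpart in other genes too. Of the 424 protein-coding genes whose only Vector peak was under 150 bp, 51.7% had no FTO peak, against 6 of 6 such respiratory chain genes and 3 of 5 such ribosomal protein genes. Where the only Vector peak was 150 bp or longer, 28.6% of all protein-coding genes had no FTO peak, against 3 of 3 ribosomal protein genes (Rpl4, Rpl5 and Rpl41) and 0 of 2 respiratory chain genes (Ndufb7 and Atp5pf).

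Most ribosomal paralogs and copies with a peak were in both lists. Of the 11 protein-coding ones with a Vector peak, 9 had an FTO peak, and 2 (18.2%) had none. Over all protein-coding genes 17.8% of those with a Vector peak and 31.8% of those with exactly 1 had none. Where the only Vector peak was 150 bp or longer, 2 of 10 copies had none, against 28.6% of all protein-coding genes. With so few genes, the share in both lists does not set the copies apart. The peaks of the copies were longer. The median Vector peak was 356 bp on these copies, 139 bp on the established ribosomal protein genes and 202 bp over all protein-coding genes, and the FTO medians were 391, 134 and 225 bp. Such copies often arise by retrotransposition of the mRNA and then lack introns.

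Rps4y2 had a peak of 934 bp in each list, the longest of the ribosomal members in the Vector list, and Rpl10l1 had 642 bp and Rpl31l15 434 bp in each. Rpl5l1 had 744 bp in the Vector list and 891 bp in the FTO list, Rps8l1 627 and 604 bp, Rps17l2 356 and 343 bp, Rpl30l1 342 and 348 bp, and Rpl27l7 265 and 267 bp. Rpl7l1, a separate paralog of Rpl7, had a peak of only 14 bp in each. Rpl36l6 with 318 bp and Rps20l2 with 238 bp were listed for Vector alone, and Rps27l3 with 252 bp for FTO alone. The gene Rpl37l3, which RefSeq lists as a pseudogene and which is therefore not among the 316, had a peak of 294 bp in each list.

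**Figure D4:**
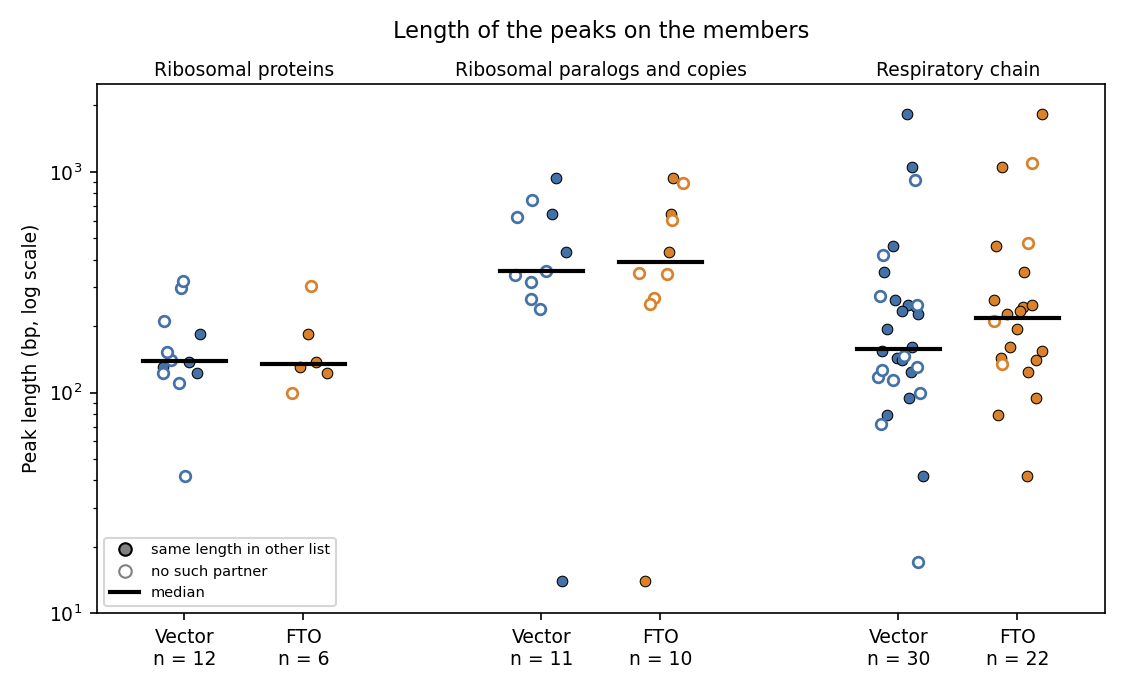
Each point is a listed peak of a protein-coding member, with its length on a log scale in bp, and black lines are medians. Filled points have a peak of the same gene and length in the other list, and the paralogs and copies lie higher, at medians of 356 and 391 bp, than the established ribosomal proteins at 139 and 134 bp.

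Over all protein-coding members, 26 of 53 Vector peaks (49.1%) and 26 of 38 FTO peaks (68.4%) were matched by a peak of equal length on that gene in the other list, beside 57.4% and 68.7% over all protein-coding genes. The partners were 4 of 12 Vector peaks on established ribosomal proteins, 18 of 30 on respiratory chain genes and 4 of 11 on paralogs and copies. Accepting lengths within 10% of each other raised the pairs from 26 to 30.

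Ribosomal protein genes have many copies, and how reads that match more than 1 of them were assigned was not tested, so the assignment of a peak to a gene or to its copy is uncertain. In 3 genes the peak number, which runs along the genome, placed a peak among genes that RefSeq puts on another chromosome. They were Uqcrb, whose peaks of 419 and 475 bp were numbered 2441 and 2273 and lay on another transcript than the rest, numbered from 50062 in the Vector list, Rps29 with its FTO peak of 303 bp, and Rpl5l1 with its Vector peak of 744 bp. So placed were 2 Vector and 2 FTO peaks of members, while 52 and 36 lay among their own chromosome. Over all matched peaks 97 and 91 were so placed, while 20375 and 17043 lay among their own. For the FTO peak of Rpl5l1, of 891 bp, the rule gave no clear answer, and it was kept. Without the peaks placed on another chromosome 35 members had a Vector peak and 23 an FTO peak, and the small subunit had no established gene in the FTO list. Among peaks of at least 200 bp, 3 of 10 ribosomal protein genes were left in the Vector list (Rps24, Rpl4 and Rpl41). In the FTO list only Rps29 was left of 4, and its peak was among those numbered on another chromosome. Respiratory chain genes left were 7 of 15 for Vector and 6 of 10 for FTO. Paralogs and copies left were 10 of 11 and 9 of 10. Over all protein-coding genes, 6253 of 7440 and 5887 of 6878 were left.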

How the data were processed

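m6A-IP and input libraries of CFs from the Vector and FTO groups, 4 in all, were grouped by their labels. The submitters' processing notes name cutadapt 1.9.3, HISAT2 2.0.4 and the rn6 build. The peak caller's version, settings and threshold are not given in the sources used here, and each peak name begins with MACS. The authors deposited 1 peak list per group, and the value used is the peak length in bp, not normalized. Depth is unknown, and 0 per-sample columns were left aside. Gene IDs were matched to the RefSeq table of GRCr8 (7489 of 7723 Vector IDs and 6920 of 7145 FTO IDs), from which symbols, gene types and neighbours were taken. In the Vector list 248 peaks had no gene ID and 474 an unmatched one, and in the FTO list 213 and 416, and these could not be assigned to a member.

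Genes with a peak and peaks per gene were counted, and peaks were paired 1 to 1 by gene ID and equal length. Pairing was tested on simulated data, and the counting was not. With 1 library pair per group no test was made. All 40 members with a peak are named, with fixed examples of members without one and the 3 genes with the most Vector peaks in each other list. A peak was placed on another chromosome when none of the 10 nearest-numbered peaks of other genes lay on the gene's own and a majority named another. Starts came from the RefSeq start table of GRCr8, a gene counting when any of its starts matched. The members and lists were chosen with earlier results of these data known. Counts were made with pandas 2.3.3 in Python 3.11.15, and intervals with scipy 1.17.1 and numpy 2.4.6.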

Additional observations from a re-analysis of the deposited data

How the results depend on the processing

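Of 36 values under alternatives, 28 stayed within 1.5 times the count or within the interval of the share. Keeping peaks of at least 200 bp left 20 of 36 members with a Vector peak, beside 6253 of 7440 protein-coding genes. It also left 26 of 53 Vector peaks, 22 of 38 FTO peaks and 12 of 26 pairs of equal length on the members. Over all protein-coding genes it left 10328 of 20457 Vector peaks, 9477 of 17104 FTO peaks and 6185 of 11746 pairs, which is a similar part. Without paralogs and tissue variants the set shrank to 155 genes, of which 14 had an FTO peak and 12 had a peak in both lists. The FTO share was then 9.03%, beside 7.59% of all 316 members and 29.7% of all protein-coding genes. The counts fell with the size of the set, while the share did not fall. Against protein-coding genes with a named symbol alone, the background rose to 35.5% (Vector) and 32.8% (FTO), further above the members. Counting all gene types, leaving out peaks numbered among another chromosome, leaving the members out of the background and, for the pairs alone, leaving out paralogs were alternatives chosen after seeing the data. Bands of protein length and a search by Ensembl identifier were not run, because the reference tables used here hold neither proteins nor Ensembl identifiers. No paired analysis was possible because a single m6A-IP and input library was made per group, and no replicate could be left out. The unknown depth limits every comparison between the groups.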

Other observations

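Ribosomal protein pseudogenes, by symbol and RefSeq gene type, had a peak less often than protein-coding genes (32.1% and 29.7%). They had one more often than genes that are not protein-coding as a whole. Of 871 such pseudogenes, 13 had a Vector peak (1.49%) and 9 an FTO peak (1.03%), each with 1 peak. The 9 were all among the 13. They were among the few listed genes that are not protein-coding. Of the matched gene IDs, 7440 of 7489 for Vector and 6878 of 6920 for FTO were protein-coding. RefSeq held 23148 protein-coding genes among 47357. An exact share for the genes that are not protein-coding was not computed, but these counts put it below that of the pseudogenes. Those in both lists were Rpl12a-ps1, Rpl17-ps17, Rpl26-ps2, Rpl36al-ps2, Rpl37-ps5, Rpl39-ps11, Rpl39-ps14, Rps15a-ps9 and Rps27a-ps12. Rpl31-ps12, Rpl38-ps3, Rps14-ps7 and Rps27a-ps1 were listed for Vector alone. Of the established genes with the same symbols, Rpl26 had 1 Vector peak and no FTO peak, while Rpl17, Rpl31, Rpl37, Rpl38, Rpl39, Rps14, Rps15a and Rps27a had no peak in either list.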
